A study of Homo sapiens with 2 samples.

Results

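The epicardium, the outer cell layer of the heart, and the related linings of the body cavities (mesothelium) are known by a small set of genes, and 10 of these were followed here: *WT1*, *TBX18*, *TCF21*, *BNC1*, *UPK3B*, *UPK1B*, *MSLN*, *LRRN4*, *KRT19* and *PDPN*. They were chosen by name, and all 10 are among the 36601 gene features counted in both libraries. Their levels and their presence in the same cells were described in 2 blood-generating heart-forming organoids (BG-HFOs), called 32.7 and 33.10, which are replicates of 1 condition with 1 single-cell library each. Both organoids came from hES3 NKX2.5-eGFP, a human embryonic stem cell line with a fluorescent reporter in the cardiac gene *NKX2-5*, and were taken apart on day 14. BG-HFOs are Matrigel-embedded aggregates led to heart tissue by switching WNT signalling on and then off, with growth factors and cytokines added for endothelium and blood. There was no untreated or mutant group, so cell classes were compared within the organoids, and each comparison rests on 2 organoids of 1 line.

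The epicardium arises from the proepicardium, a cluster of cells next to the septum transversum, the mesenchyme between the early heart and liver. *WT1*, *TBX18* and *TCF21* encode transcription factors of these cells, and all of them are also made in other mesenchyme. Epicardial cells can lose their epithelial form and become fibroblasts and mural cells. *BNC1* encodes a zinc-finger protein, *UPK3B* and *UPK1B* uroplakins, *MSLN* mesothelin, *LRRN4* a leucine-rich repeat membrane protein, *KRT19* a keratin of simple epithelia and *PDPN* podoplanin, and these genes are better known from formed mesothelium or other epithelia.

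Cells were placed in classes by counts of unique molecular identifiers (UMIs, which count captured RNA molecules). A COL3A1-positive cell had at least 10 UMIs of *COL3A1*, a fibrillar collagen gene of mesenchyme, and passed no gate for another lineage. There were 2155 such cells of 16792 in organoid 32.7 and 1798 of 19893 in organoid 33.10, with medians of 12203 and 12254 UMIs per cell. The other classes were cardiomyocytes (1927 and 1928 cells), endothelium (2621 and 2765), erythroid cells (599 and 1630), megakaryocytes (404 and 1067), leukocytes (1014 and 638) and endoderm (151 and 24). Cells that passed several gates (3497 and 5309) or none (4424 and 4734) were set aside. The libraries share 100 cell barcodes, 16 and 11 of them among COL3A1-positive cells, and leaving these out changed no call of a member.

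Markers that the gates did not use bore out the mesenchymal class only in part. *COL1A1* was at 1228 to 1400.5 counts per 1e6 UMIs of the class (CPM) in COL3A1-positive cells and at most 218 CPM in any other class. *DCN*, a fibroblast proteoglycan gene, was at 71.2 to 218 CPM against at most 39.8 CPM elsewhere. *PDGFRA* was at 151 to 165 CPM, but also at 126 to 136 CPM in cardiomyocytes. The name of the gene set was met only for part of its members, since *UPK3B* and *MSLN* were hardly found in the mesenchyme (described further on). Outside the set, the mesothelial markers *MUC16* and *ITLN1* stayed at or under 0.634 CPM in COL3A1-positive cells. *ALDH1A2*, the retinoic acid enzyme of the epicardium, was at 4.53 to 9.05 CPM there. It was at 18.7 to 25.4 CPM in cardiomyocytes and 110 to 129 CPM in leukocytes. Other epicardial genes went either way against cardiomyocytes (described further on). Of genes of kidney and gonad mesoderm, which also uses *WT1*, the COL3A1-positive cells had *PAX2*, *PAX8*, *SIX2*, *NR5A1* and *EYA1* at or under 1.78 CPM, *NPHS1* at 3.52 to 9.05 CPM and *LHX1* at 13.1 to 17.7 CPM.

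In GRCh38 the members lie on 9 chromosomes: *PDPN* at chr1:13583465-13617957, *UPK1B* at chr3:119173517-119205143, *TBX18* at chr6:84687351-84764598, *TCF21* at chr6:133889113-133895553, *UPK3B* at chr7:76510525-76516522, *WT1* at chr11:32387775-32435564, *BNC1* at chr15:83255884-83284664, *MSLN* at chr16:760734-768865, *KRT19* at chr17:41523617-41528308 and *LRRN4* at chr20:6040546-6054060. All 10 are protein coding, and their UMIs can come from exons or introns. *WT1*, *TBX18* and *TCF21* each overlap a long non-coding gene of the opposite strand, *WT1-AS*, *TBX18-AS1* and *TARID*. *UPK3B* has close copies, of which *UPK3BL1* was at 21.1 to 33.4 CPM in every class other than endoderm, so the few UMIs of *UPK3B* are uncertain.

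The 250 bases before the start site are shown for the transcription factor genes, because *TBX18* and *TCF21* were lower together in one part of the mesenchyme while *WT1* did not pass the test there (described further on). RefSeq (GRCh38.p14) gave a start for 7 of the 10 members. Capitals mark matches to GGGCGG, the GC box, which reads as its reverse complement where it lies on the other strand. They also mark matches to the letters AGATAA, a motif of GATA factors. Both strands were searched, and the matches shown do not overlap.

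TBX18 (chr6:84764599-84764848, minus strand): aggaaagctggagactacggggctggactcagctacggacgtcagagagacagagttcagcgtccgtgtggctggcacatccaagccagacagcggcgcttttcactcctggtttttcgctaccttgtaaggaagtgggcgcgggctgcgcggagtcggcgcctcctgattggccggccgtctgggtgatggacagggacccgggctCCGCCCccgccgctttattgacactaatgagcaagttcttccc
TCF21 (chr6:133888863-133889112, plus strand): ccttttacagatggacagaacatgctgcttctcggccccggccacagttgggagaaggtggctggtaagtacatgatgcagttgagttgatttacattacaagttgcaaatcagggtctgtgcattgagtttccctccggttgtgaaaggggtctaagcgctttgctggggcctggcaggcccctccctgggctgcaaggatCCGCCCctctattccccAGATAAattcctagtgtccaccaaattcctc
WT1 (chr11:32435540-32435789, minus strand): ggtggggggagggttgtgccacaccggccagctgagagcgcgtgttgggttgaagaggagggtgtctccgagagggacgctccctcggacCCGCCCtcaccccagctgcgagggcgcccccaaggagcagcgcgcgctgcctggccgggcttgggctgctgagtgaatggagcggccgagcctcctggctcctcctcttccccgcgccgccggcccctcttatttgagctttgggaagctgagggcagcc

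The 3 windows each hold 1 GC box, which 42.5% of 34943 such windows hold. *TCF21* also holds 1 GATA motif, found in 9.19% of windows. The TEAD letters GGAATG, found in 11.9% of windows, occur in none of these 3. *WT1* has other starts whose windows are not shown, and the one at chr11:32400401-32400650 holds a TEAD match and no GC box. The match to letters is a description and was not tied to binding.

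The first question was whether the 3 transcription factor genes mark the mesenchyme or are shared with the heart muscle. *WT1* was at 69.8 CPM in COL3A1-positive cells of organoid 32.7 and 89.8 CPM in those of 33.10, against 14.0 and 21.9 CPM in cardiomyocytes. *TCF21* was at 98.5 and 125 CPM against 34.0 and 49.8 CPM. Both genes were higher in the mesenchyme of each organoid than in either set of cardiomyocytes, by log2 fold changes of 2.07 (SE 0.24, adjusted p = 2.04e-05) and 1.33 (SE 0.27, adjusted p = 0.00169). Every adjusted p given here is from the quasi-likelihood test of edgeR, with Benjamini-Hochberg adjustment over all genes tested. The call of *TCF21* was lost with a *COL3A1* gate of 20 UMIs (0.45, adjusted p = 0.141). *TBX18* was at 22.0 and 35.7 CPM against 20.9 and 28.3 CPM, so that its ranges overlapped, and the log2 fold change, 0.14 with an SE of 0.24, was not called (adjusted p = 0.701). *TBX18* did pass with a *COL3A1* gate of 5 UMIs (1.04, adjusted p = 0.00579), with the other gates doubled (0.81, adjusted p = 0.0460) and when the cardiomyocyte gate left out *TNNT2*, an alternative added after the values were seen (1.60, adjusted p = 0.000182). *WT1-AS* and *TARID* went the same way as their neighbours, with log2 fold changes of 2.08 (SE 0.26, adjusted p = 3.68e-05) and 1.20 (SE 0.27, adjusted p = 0.00386).

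The mesothelial and epithelial genes split into those higher in mesenchyme, those higher in cardiomyocytes and those near absent. *BNC1* was at 27.2 and 12.5 CPM in COL3A1-positive cells against 4.14 and 2.89 CPM in cardiomyocytes (log2 fold change 2.43, SE 0.43, adjusted p = 0.000674). *LRRN4* was at 47.7 and 47.9 CPM against 28.0 and 33.6 CPM (0.55, SE 0.20, adjusted p = 0.0463). The call of *LRRN4* was close to the threshold and was lost under 6 of 14 alternatives, with adjusted p from 0.00623 to 0.456.

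*UPK1B* and *PDPN* went the other way. *UPK1B* was at 0.534 and 0.775 CPM in COL3A1-positive cells and 7.19 and 8.27 CPM in cardiomyocytes (log2 fold change -3.64, SE 0.34, adjusted p = 2.91e-06), with no overlap between the classes. *PDPN* was at 9.61 and 1.63 CPM against 17.6 and 15.8 CPM (-1.62, SE 0.54, adjusted p = 0.0344). Its call was lost under 3 of 14 alternatives, and the log2 fold change was -0.94 in 32.7 alone and -3.36 in 33.10 alone. The mesenchyme of the 2 organoids differed more in *PDPN* than in the other members above 1 CPM, and 47 of 142 positive cells in 32.7 had at least 2 UMIs against 8 of 34 in 33.10. *KRT19* was at 551 and 328 CPM against 456 and 411 CPM, which overlap (-0.05, SE 0.31, adjusted p = 0.921).

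*UPK3B* and *MSLN* were hardly found in the mesenchyme. *UPK3B* had a UMI in 12 of 2155 cells of 32.7 (0.557%, exact 95% binomial interval 0.288 to 0.971%) and 2 of 1798 of 33.10 (0.111%, 0.0135 to 0.401%). *MSLN* had one in 7 and 3 cells (0.325 and 0.167%). Intervals cover counting error only. *UPK3B* did not pass the filter on low counts and was not tested between lineages, and *MSLN* passed it but had a log2 fold change of 0.00 (SE 0.70).

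In all, 4 of the 9 members tested were higher in COL3A1-positive cells than in cardiomyocytes (*WT1*, *TCF21*, *BNC1* and *LRRN4*), 2 were lower and 3 were not called. Over all 21742 genes 15.8% were higher and 16.7% lower, and the median log2 fold change was -0.02. The levels of all 10 genes by class are plotted next.

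**Figure D1:**
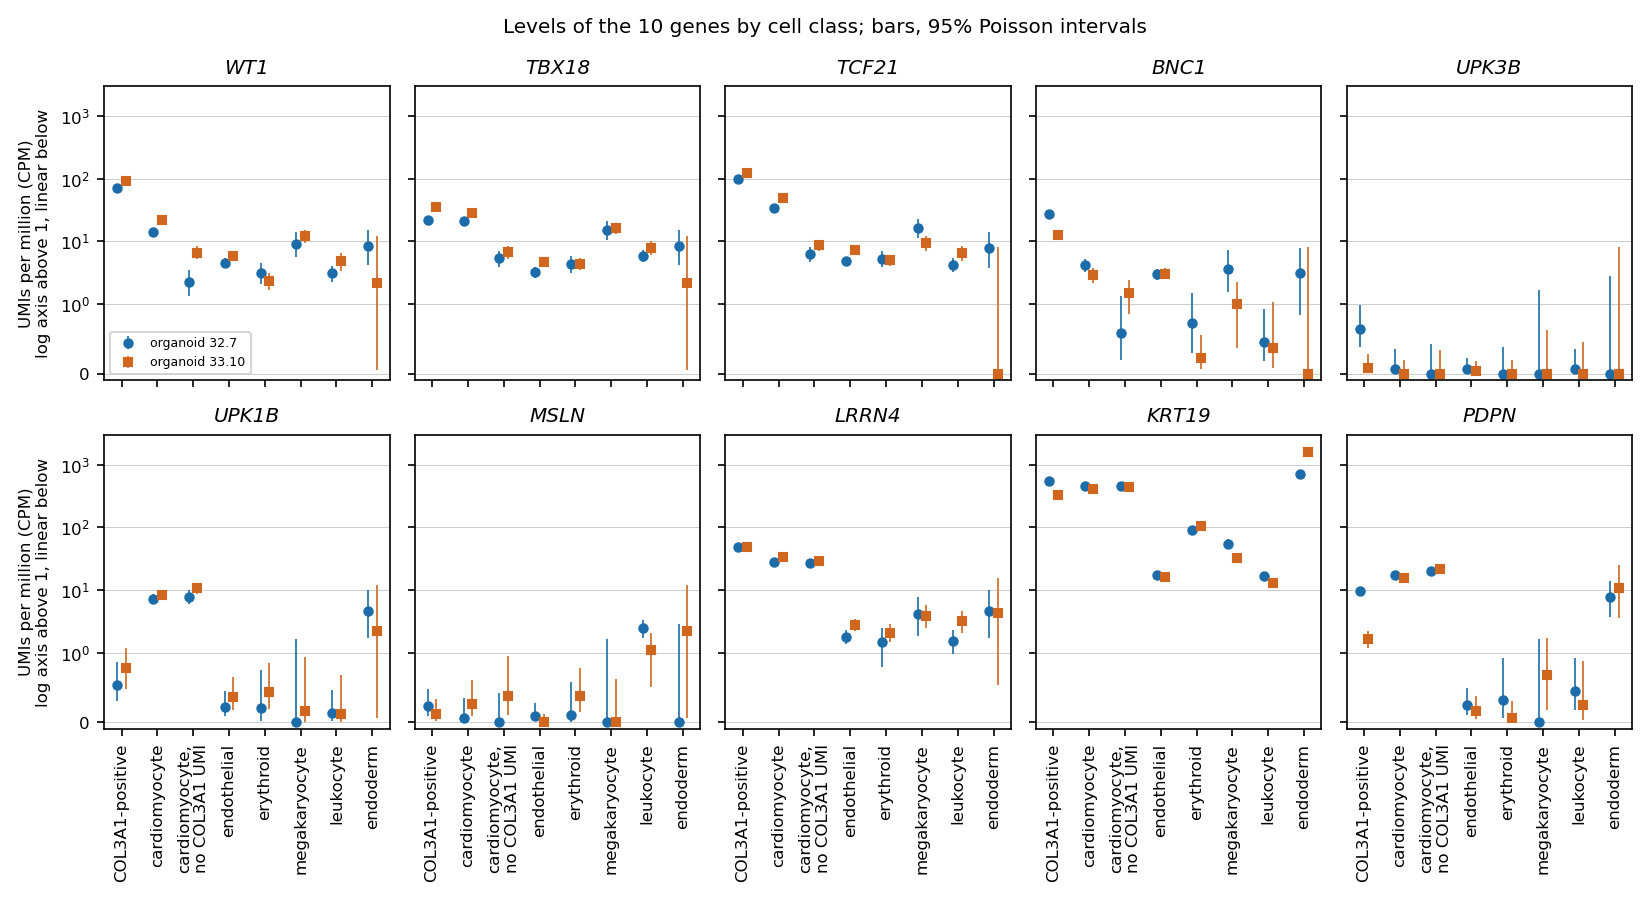
Levels of the 10 genes (vertical axis, CPM, logarithmic above 1 and linear below) in 8 cell classes (horizontal axis). Circles are organoid 32.7, squares organoid 33.10, and bars are 95% Poisson intervals, which cover counting error only. WT1, TCF21 and BNC1 are highest in COL3A1-positive cells, UPK1B and PDPN are highest in cardiomyocytes, and WT1, TBX18, TCF21 and BNC1 are lower in the cardiomyocytes without a COL3A1 UMI than in all cardiomyocytes.

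Cardiomyocytes with no *COL3A1* UMI were then looked at alone (1132 and 1148 cells, chosen after the levels were seen and not tested). In these, *WT1* was at 2.20 and 6.60 CPM, *TCF21* at 6.25 and 8.64 CPM, *TBX18* at 5.32 and 6.69 CPM and *BNC1* at 0.578 and 1.49 CPM. Erythroid cells and leukocytes held *WT1* at 2.28 to 4.76 CPM, between the values of the organoids, and megakaryocytes at 9.06 and 11.9 CPM, above both. For *TBX18* both values lay in the range of 4.28 to 7.82 CPM of erythroid cells and leukocytes and below the 14.9 and 16.0 CPM of megakaryocytes. The other genes stayed near their level in all cardiomyocytes or above it. *LRRN4* was at 26.9 and 29.0 CPM, *KRT19* at 458 and 433 CPM, *UPK1B* at 7.75 and 10.6 CPM and *PDPN* at 20.0 and 21.8 CPM. The members thus fell into a group whose cardiomyocyte level went with *COL3A1* and a group whose level did not. The part of free RNA, of doublets and of cells of mixed state in the first group was not tested.

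Thinned to 5000 UMIs per cell, a depth that 1075 and 1418 cardiomyocytes and 2000 and 1686 COL3A1-positive cells reached, *LRRN4* was found in 13.7 and 14.9% of cardiomyocytes and 16.1 and 18.0% of COL3A1-positive cells. Unthinned, the shares were 17.2 and 25.3% against 32.6 and 38.1%. In endothelium, with median depths of 10640 and 9166 UMIs, it was found in 0.857 and 1.02% of thinned cells. *WT1* was found in 24.7 and 31.4% of thinned COL3A1-positive cells and 2.21 and 2.61% of endothelial cells, and *TCF21* in 32.3 and 37.8% against 1.53 and 2.48%. A share in cells thinned to one depth does not follow their sequencing depth, and for these genes it was many times the share in endothelium or blood.

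Against endothelium, 7 of 9 members tested were higher in COL3A1-positive cells (background 23.5% of genes higher and 22.5% lower) and 2 were not called. The largest differences were of *PDPN* (log2 fold change 4.64, SE 0.77, adjusted p = 0.000227), *KRT19* (4.62, SE 0.36), *LRRN4* (4.30, SE 0.24) and *TCF21* (4.10, SE 0.30). *WT1* was at 4.55 and 5.85 CPM in endothelium (3.84, SE 0.26, adjusted p = 7.26e-08) and *TBX18* at 3.22 and 4.61 CPM (2.78, SE 0.26, adjusted p = 1.40e-06). *PDPN* also marks lymphatic endothelium, and in the endothelial class it was at 0.247 and 0.163 CPM, whereas the lymphatic genes *PROX1*, *LYVE1* and *FLT4* were at 20.9 to 25.9, 15.6 to 25.2 and 60.6 to 65.1 CPM. *UPK1B* (1.06, SE 0.42, adjusted p = 0.0547) and *MSLN* did not pass. *UPK1B* passed in 7 of the 14 alternatives, with an adjusted p of 0.0421 when blocked on organoid and of 0.000269 when cells of several gates were kept.

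Against the mean of the 3 blood classes, 8 of 9 members tested were higher (background 29.3% of genes higher and 29.5% lower), and *MSLN* was not called. Among the 8 is *UPK1B*, on only 16 and 20 UMIs in COL3A1-positive cells. It was at 0.534 and 0.775 CPM there and at most 0.435 CPM in any blood class. The fit and its filter on low counts were shared with cardiomyocytes, where its level was highest. The call of *UPK1B* (1.36, SE 0.49, adjusted p = 0.0281) was lost when the megakaryocyte and leukocyte gates were joined (0.71, adjusted p = 0.147), an alternative added after the values were seen. Log2 fold changes were 3.58 for *WT1* (SE 0.19, adjusted p = 4.03e-09), 3.56 for *TCF21* (SE 0.22) and 4.39 for *BNC1* (SE 0.40), but only 1.42 for *TBX18* (SE 0.20, adjusted p = 3.57e-05). *TBX18* was at 4.28 and 4.40 CPM in erythroid cells, 5.83 and 7.82 CPM in leukocytes and 14.9 and 16.0 CPM in megakaryocytes.

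The proportion of *TBX18* to *WT1* differed between the classes and, among those given here, was lowest in COL3A1-positive cells. Most cells with *TBX18* lay outside this class, which held 310 of 1552 (20.0%) and 420 of 2405 (17.5%). It held 37.2 and 29.4% of the cells with *WT1*. Cells of several gates, which were set aside, held 41.6 and 45.3% of the cells with *TBX18* and 31.2 and 33.8% of those with *WT1*. COL3A1-positive cells held 0.315 and 0.397 UMIs of *TBX18* for each UMI of *WT1*, against 0.703 and 0.699 over all cells of the libraries. Cardiomyocytes held 1.49 and 1.30, and cells of both the COL3A1 and the cardiomyocyte gate 1.29 and 0.712. Endothelium held 0.707 and 0.788, erythroid cells 1.37 and 1.93, leukocytes 1.90 and 1.64, and megakaryocytes 1.65 and 1.34. In cells that passed both the megakaryocyte and the leukocyte gate (506 and 1462 cells, with the platelet factor gene *PF4* at 11992 and 11390 CPM), *TBX18* had 91 and 309 UMIs against 23 and 79 of *WT1*, a ratio of 3.96 and 3.91. There *TBX18* was at 13.3 and 18.3 CPM, and *TCF21* at 3.35 and 4.15 CPM. The ratio thus differed more than 10-fold in 32.7 between COL3A1-positive cells and these double-gate cells, and a ratio above 1 was found in cardiomyocytes as well as in blood. These classes were singled out after the values were seen, and no test was made.

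**Figure D2:**
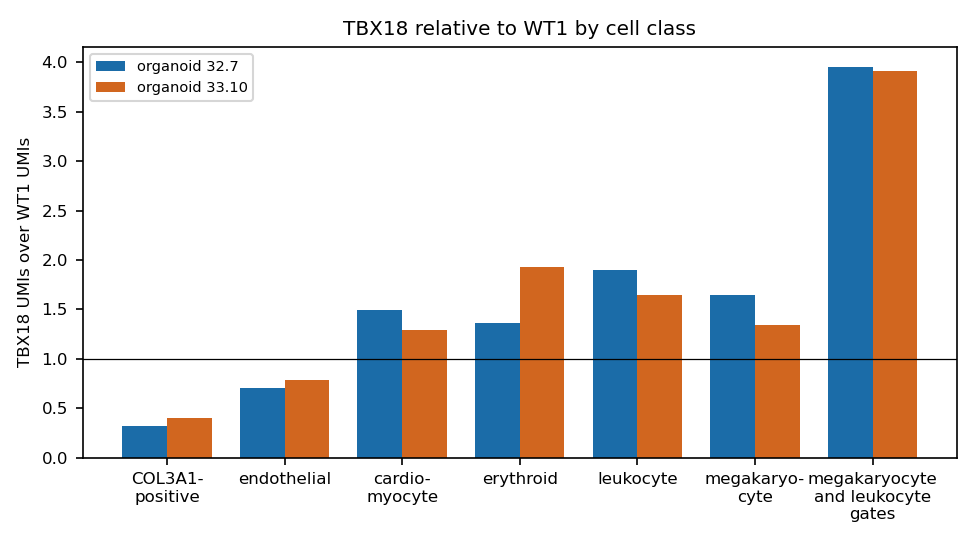
UMIs of TBX18 divided by UMIs of WT1 (vertical axis, a ratio without unit) in 7 cell classes (horizontal axis). Blue bars are organoid 32.7 and orange bars organoid 33.10, the line is at 1, and the ratio is below 1 in COL3A1-positive cells and endothelium and near 4 in cells of both the megakaryocyte and leukocyte gates.

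Of the other members, *MSLN* had its highest class level in leukocytes in organoid 32.7, with 38 UMIs in 1014 cells (2.44 CPM), and 9 UMIs in 638 cells of 33.10 (1.10 CPM). The endoderm of 33.10 was at 2.18 CPM on a single UMI. *KRT19* was at 89.0 and 104 CPM in erythroid cells against 16.7 and 12.9 CPM in leukocytes, and 31.7 and 33.3% of thinned erythroid cells held a UMI of it against 7.11 and 4.77% of leukocytes. For *BNC1*, *UPK1B* and *PDPN*, the erythroid cells and leukocytes were under 1 CPM in both organoids.

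Endoderm cells were few, and those of 33.10 number 24. *KRT19*, which is also a keratin of gut epithelium, was at 716 and 1584 CPM there and lower in COL3A1-positive cells (log2 fold change -1.32, SE 0.32, adjusted p = 0.0102). *UPK1B* was lower as well (-2.59, SE 0.65, adjusted p = 0.0125), on 6 and 1 UMIs in endoderm. For *KRT19* the log2 fold change was -0.41 in 32.7 alone and -2.21 in 33.10 alone. *WT1*, *TBX18*, *TCF21*, *BNC1* and *LRRN4* were higher in COL3A1-positive cells. In all, 5 of 9 members tested were higher and 2 lower, where 9.01% of genes were higher and 8.98% lower. *TCF21* and *BNC1* had no UMI in the endoderm of 33.10, so that their folds there rest on 32.7. *WT1* gave 3.01 and 5.42 and *TBX18* 1.35 and 4.09 in 32.7 and 33.10 alone. The values of 33.10 rest on 1 UMI of *WT1* and 1 of *TBX18* in its endoderm, where *LRRN4* had 2. The calls of *TBX18*, *BNC1* and *UPK1B* were each lost under 2 or more of 14 alternatives.

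Among cells outside the other gates, the members did not follow *COL3A1* in the same way. The bins of up to 9 UMIs of *COL3A1* fall below the gate of the COL3A1-positive class. The order given here is therefore not a gradient within that class. Cells outside the other gates with at least 5000 UMIs were ordered by *COL3A1* count. *TBX18* was at 55.2 and 78.4 CPM with 1 to 2 UMIs of *COL3A1*, 48.5 and 44.9 CPM with 5 to 9, 24.3 and 34.2 CPM with 20 to 49, and 12.4 and 18.5 CPM with 50 or more. *TCF21* was highest at 5 to 9 UMIs in 32.7 (157 CPM) and at 3 to 4 in 33.10 (239 CPM), and was at 58.2 and 97.5 CPM with 50 or more. *WT1* was at 55.8 and 84.4 CPM with 3 to 4 UMIs and 55.2 and 83.0 CPM with 50 or more, and *LRRN4* at 39.5 and 59.5 and at 51.5 and 48.1 CPM.

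Cells with no *COL3A1* UMI held less *TBX18* and *WT1* than cells with 1 to 2, with *TBX18* at 14.7 and 13.1 CPM and *WT1* at 17.3 and 14.0 CPM. Thus in both organoids *TBX18* was higher at 1 to 2 UMIs of *COL3A1* than in cells without one. It was also higher there than at 20 to 49 and at 50 or more. Whether the level at 1 to 2 UMIs differed from that of the next bin up was not tested, so no peak is placed there. *WT1* was highest at 20 to 49 UMIs (77.1 and 92.7 CPM), with 40.9 and 66.8 CPM at 1 to 2. The bins differ in depth, from medians of 6334 and 6915 UMIs per cell at 1 to 2 to 20810 and 26517 at 50 or more. *TNNT2*, a cardiomyocyte gene, went from 201 and 221 CPM at 1 to 2 UMIs to 40.3 and 43.2 CPM at 50 or more. *PF4* was at 167 and 307 CPM and 12.4 and 43.2 CPM. All these cells had failed the cardiomyocyte gate, which caps their *TNNT2* at a fixed UMI count. *TNNT2* had 113 and 248 UMIs in 77 and 140 cells at 1 to 2 UMIs of *COL3A1*. At 50 or more it had 254 and 131 UMIs in 265 and 103 cells. The part of the gate in the fall of *TNNT2* was not tested, and the fall is not read as a move with *TBX18*. The gate also set aside cells of both gates, whose *TBX18* level is given below. The part of the gate, and of the sources of *TNNT2* and *PF4* RNA, in the level of *TBX18* was not tested.

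**Figure D3:**
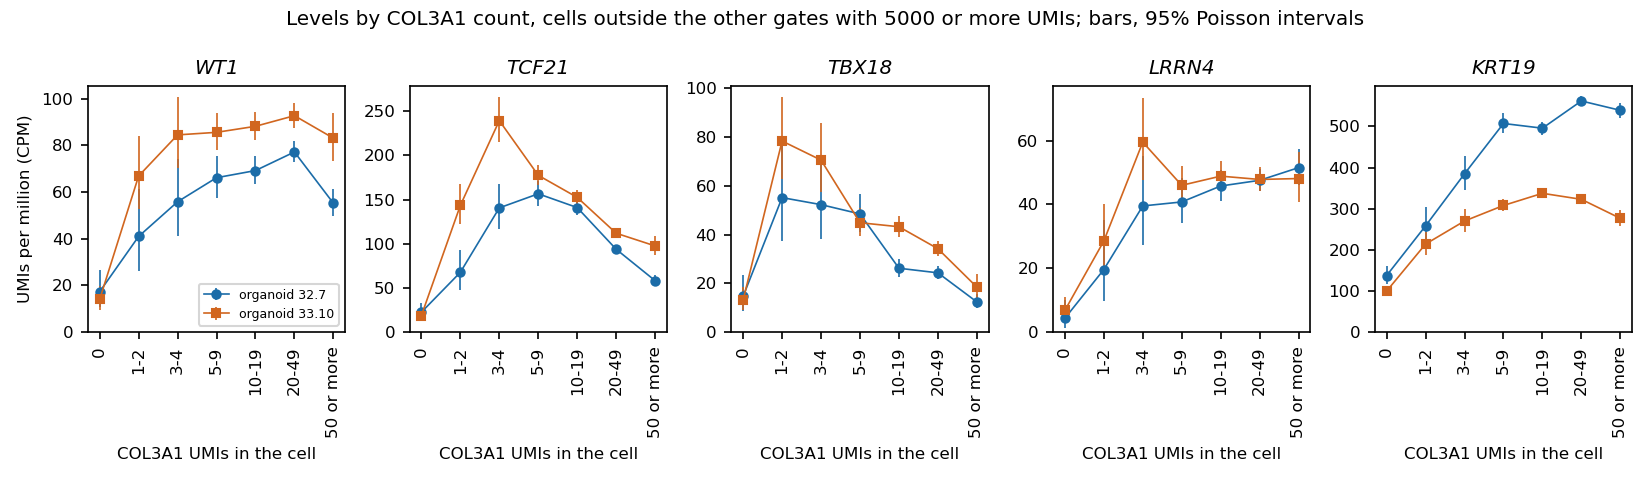
Levels of 5 genes (vertical axes, CPM, from 0) in cells of rising COL3A1 count (horizontal axis, UMIs per cell), outside the other gates and with at least 5000 UMIs. Circles are organoid 32.7, squares organoid 33.10, bars are 95% Poisson intervals, and TBX18 drops from 55.2 and 78.4 CPM at 1 to 2 COL3A1 UMIs to 12.4 and 18.5 CPM at 50 or more, with 14.7 and 13.1 CPM at 0, and WT1 peaks at 20 to 49 with 77.1 and 92.7 CPM.

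Cells that passed both the COL3A1 and the cardiomyocyte gate had a higher level of *TBX18* than COL3A1-positive cells. It was at 66.9 and 49.6 CPM in 587 and 591 cells, against 22.0 and 35.7 CPM in COL3A1-positive cells. Of these cells 186 and 204 had at most 2 UMIs of *MYH6* and *ACTC1* together, so that *TNNT2* carried them over the cardiomyocyte gate. In those, *TBX18* was at 100 and 62.0 CPM, *TCF21* at 208 and 201 CPM and *WT1* at 75.1 and 95.9 CPM. The low level of *MYH6* and the high level of *TNNT2* in these cells were set by how they were chosen. The double-gate cells with more *MYH6* and *ACTC1* (401 and 387 cells) had less *TBX18*, *WT1* and *TCF21*, with *TCF21* at 99.6 and 104 CPM. This division was made after the levels were seen and was not tested.

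COL3A1-positive cells were divided by *LUM*, lumican, a fibroblast proteoglycan that is no member, into cells with at least 5 UMIs (LUM-high) and cells with fewer (LUM-low). Non-cycling cells numbered 1167 and 514 LUM-high and 762 and 980 LUM-low, and cycling cells 134 and 118 LUM-high and 92 and 186 LUM-low. The states were held apart in the fit, and 9 members were tested. Among non-cycling cells *TBX18* was at 8.68 and 14.6 CPM in LUM-high and 42.7 and 48.9 CPM in LUM-low cells, and among cycling cells at 8.67 and 27.3 against 42.4 and 36.7 CPM. It was lower in LUM-high cells in both organoids and both states, by a log2 fold change of -1.56 (SE 0.23, adjusted p = 0.000868). *TCF21* was lower too (68.4 and 90.2 against 149 and 150 CPM in non-cycling cells, -0.76, SE 0.17, adjusted p = 0.0204), with the call lost under 2 of 13 alternatives. *KRT19* was higher in LUM-high cells, at 777 and 562 against 332 and 281 CPM in non-cycling cells (1.18, SE 0.21, adjusted p = 0.00351). *WT1* (-0.18, SE 0.16, adjusted p = 0.735), *LRRN4* (-0.38, SE 0.14, adjusted p = 0.203) and *BNC1* (0.33, SE 0.39, adjusted p = 0.838) did not pass. So 1 of 9 members was higher and 2 lower, where 1.56% of genes were higher and 1.79% lower (683 genes, or 1117 with the organoid as a block).

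Other genes of the epicardium and septum transversum, from a list of 15, also divided by *LUM*: 4 were lower (*TBX20*, -0.99, SE 0.21; *GATA4*, -0.82, SE 0.12; *TBX5*, -0.78, SE 0.20; and *LHX9*, at under 1 CPM), 1 was higher (*NR2F1*, 2.00, SE 0.33) and 10 were not called. The list's median was -0.21 against 0.00 over all genes. *TBX20*, *GATA4* and *TBX5* encode transcription factors that cardiomyocytes also make, and *NKX2-5* was lower in LUM-high cells as well (-1.26, SE 0.24, adjusted p = 0.00535). The other cardiomyocyte genes looked at were not called: *TNNT2* (-0.89, SE 0.30, adjusted p = 0.149), *MYH6* (-0.06), *ACTC1* (-0.04), *MYL3* (0.17) and *NPPA* (0.12). Of 14 epithelial and mesothelial genes tested, *RSPO1*, a WNT activator, was higher (0.80, SE 0.16) and 13 were not called. Of 12 mesenchymal genes *DCN* was higher (2.96, SE 0.47) and 11 were not called.

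Cycling cells had at least 3 UMIs of *MKI67* and *TOP2A* together. *KRT19* was lower in them by a log2 fold change of -1.23 (SE 0.21, adjusted p = 0.000622), from 777 and 562 to 370 and 251 CPM in LUM-high cells and from 332 and 281 to 151 and 126 CPM in LUM-low cells. Cycling cells were also deeper, with medians of 20137 and 21909 UMIs against 11830 and 11907 in LUM-high cells. In LUM-low cells the medians were 18728 and 18906 against 11178 and 11265 UMIs. CPM is a share of all UMIs of a class, and the part of depth in the lower *KRT19* was not tested. None of the 8 other members tested was called, and none was higher, where 6.99% of genes were higher and 10.5% lower. For *WT1* (-0.13, SE 0.16), *TBX18* (0.12, SE 0.23) and *LRRN4* (0.09, SE 0.14) the change was under 1 SE, and for *BNC1* (-0.90, SE 0.39, adjusted p = 0.126) it was larger but passed only with the organoid as a block (adjusted p = 0.0107) or with no filter on low counts (0.0222). *PDPN* had a larger change (-1.73, SE 0.67, adjusted p = 0.0872) and passed with no filter on low counts (adjusted p = 0.0134).

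**Figure D4:**
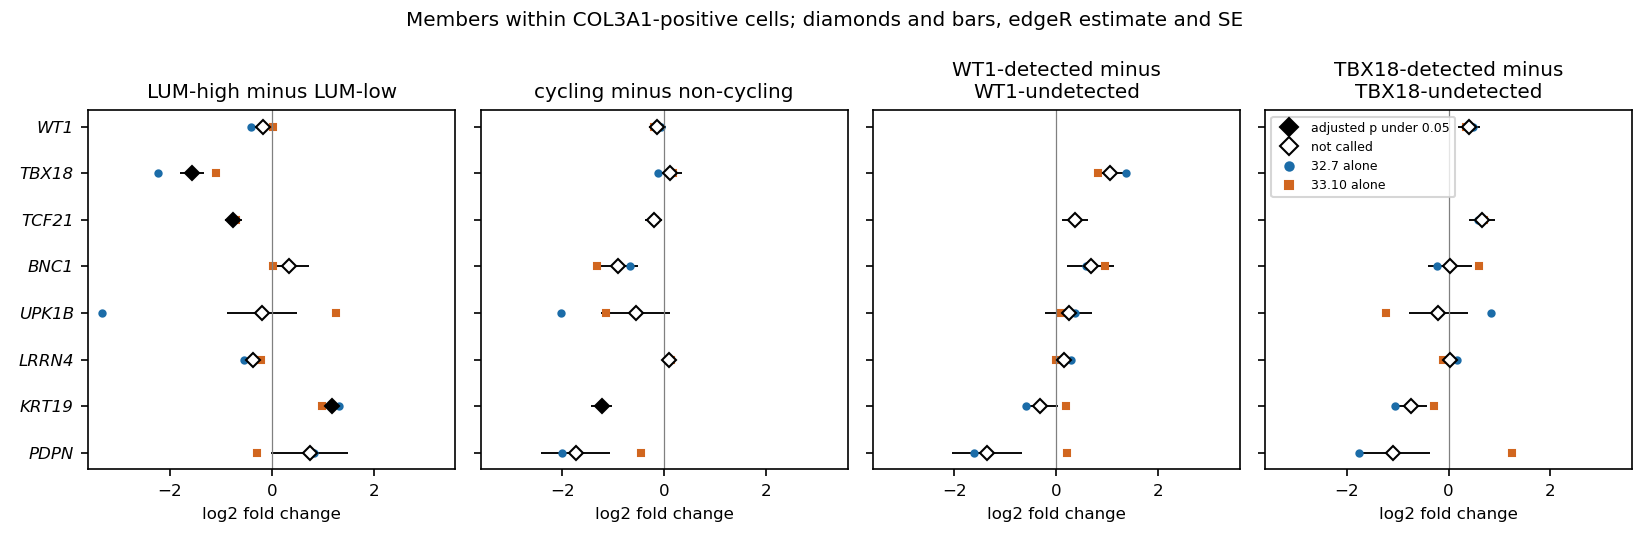
Log2 fold changes (horizontal axes) of 8 members (rows) within COL3A1-positive cells in 4 comparisons. Diamonds and bars are the edgeR estimate and its SE, filled where adjusted p was under 0.05, blue circles and orange squares are organoids 32.7 and 33.10 alone, and TBX18 and TCF21 are called lower and KRT19 higher in LUM-high cells, with KRT19 also lower in cycling cells.

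The members were next followed within single cells. In COL3A1-positive cells thinned to 5000 UMIs, 12.9 and 15.0% held a UMI of no member, 36.9 and 33.3% of 1 member, and 18.4 and 20.7% of at least 3. In leukocytes of the same depth 85.4 and 86.1% held none and 0.623 and 0.434% at least 3. Per positive cell the counts were low: *WT1* had a mean of 2.37 and 2.51 UMIs in the cells that held it, at full depth, and *KRT19* 9.46 and 6.19.

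For each of 45 pairs of members the number of thinned cells with both was divided by the number expected if the genes were independent, and 17 pairs had at least 5 expected cells in each organoid. In 10 of these the ratio was above 1 in both organoids and in 4 below 1 in both. *TBX18* and *TCF21* had the highest mean ratio, with 92 cells against 52.3 expected in 32.7 and 126 against 82.1 in 33.10 (1.76 and 1.53). A ratio cannot exceed 1 divided by the share of cells with the commoner gene, so the pairs differ in their ceiling and the order of ratios is no order of association. *WT1* with *TBX18* gave 1.67 and 1.22, *WT1* with *BNC1* 1.39 and 1.40, and *WT1* with *TCF21* 1.18 and 1.19. *TCF21* with *BNC1* was nearer to independence, with 73 cells against 70.4 expected and 45 against 39.7 (1.04 and 1.13).

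*KRT19* went with *BNC1* (1.33 and 1.40) and *PDPN* (1.48 and 1.39) but not with the transcription factor genes, where its ratios lay between 0.903 and 1.08. The ceiling of its ratios is low, since 65.65 and 56.41% of thinned cells held it. Of the thinned cells with *PDPN*, 71 of 73 in 32.7 and 11 of 14 in 33.10 also held *KRT19*. *LRRN4* showed ratios of 1.03 and 1.04 with *WT1* and 0.875 and 0.933 with *KRT19*, the latter below 1 in both organoids. All cells of an organoid share 1 library, so the organoids are the only replicates of these ratios, and no p was made. At 5000 UMIs *UPK3B* was found in 5 and 0 cells, *UPK1B* in 6 and 6 and *MSLN* in 3 and 1, too few for a ratio.

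**Figure D5:**
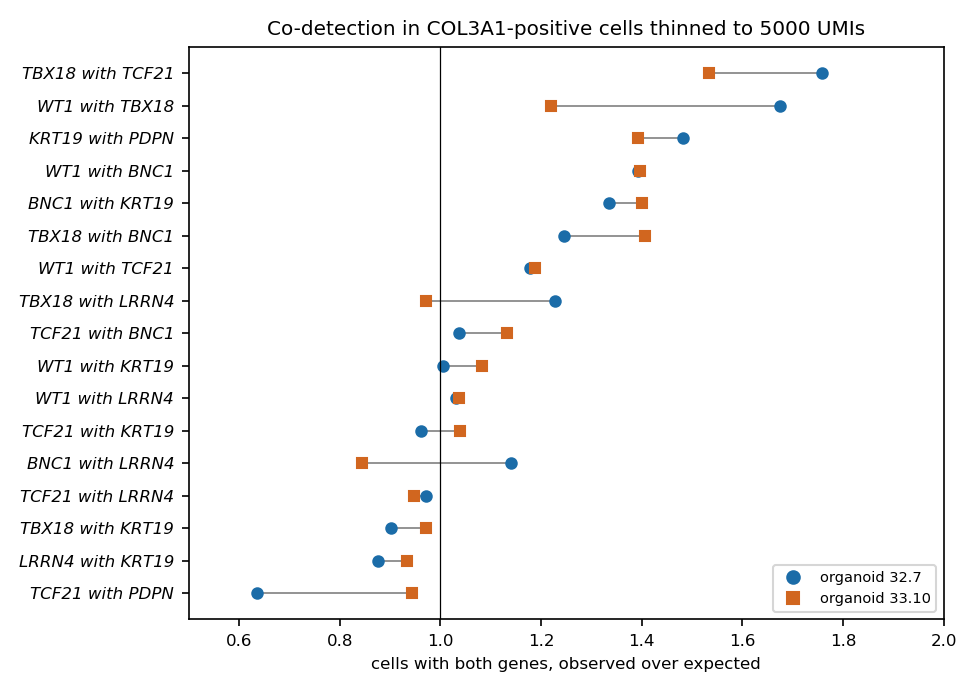
Cells with both genes of a pair, observed over expected (horizontal axis, a ratio without unit), for 17 pairs of members (rows) in COL3A1-positive cells thinned to 5000 UMIs. Circles are organoid 32.7, squares organoid 33.10, the line at 1 marks independence, and TBX18 with TCF21 lies at 1.76 and 1.53.

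COL3A1-positive cells were then divided by the members themselves, to see what else differed. A cell with a UMI is also a deeper cell: medians were 14486 and 13835 UMIs in cells with *WT1* (884 and 925 cells) against 10563 and 10524 in those without, and 15313 and 15128 in cells with *TBX18* (310 and 420) against 11718 and 11463. The gene that divides gets no test. For *WT1*, 0% of 21727 genes were higher and 0% lower by edgeR's adjusted p. Its unadjusted p was under 0.05 for 975 genes, no more than that threshold passes where no gene differs. With the organoid as a block 12 genes were called, and DESeq2 called 18. None of the 8 other members tested was called. *TBX18* was at 32.6 and 44.3 CPM in WT1-detected and 12.0 and 24.0 CPM in WT1-undetected cells, higher in each organoid, with a log2 fold change of 1.05 (SE 0.27) that did not pass (adjusted p = 0.659).

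The division by *TBX18* called 13 genes higher (0.0614%) and 8 lower (0.0378%) of 21188, and again none of the 8 other members tested. *TCF21* was at 142 and 179 CPM in TBX18-detected and 88.2 and 103 CPM in TBX18-undetected cells (0.65, SE 0.25, adjusted p = 0.586). *KRT19* was at 315 and 296 against 607 and 341 CPM (-0.74, SE 0.32, adjusted p = 0.640). Both were on the same side in each organoid, without passing.

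Among called genes with at least 10 CPM in the higher part of each organoid, the 5 with the largest fold toward TBX18-detected cells were *SLC16A12*, a transporter gene (2.02, SE 0.28, adjusted p = 0.0156), *ARAP2* (1.84), *RXRG*, a retinoid X receptor (1.71), *CFI*, complement factor I (1.58), and *SCN7A*, a sodium channel family member (1.58). *SCN7A* was at 162 and 169 CPM against 40.8 and 63.4 CPM, and *CFI* at 67.4 and 49.5 against 16.5 and 20.1 CPM. The 5 largest away were *PPP2R2B* (-1.90), *ERBB4*, a neuregulin receptor (-1.88, SE 0.22, adjusted p = 0.00446), *SHISA3* (-1.84), *CNTNAP4* (-1.53) and *TGFBR3*, a co-receptor of TGF-beta (-1.10). *ERBB4* was at 10.2 and 18.3 CPM in TBX18-detected and 50.3 and 48.4 CPM in the other cells. None of these 10 genes had overlapping values between the parts, which follows largely from the rule that picked them.

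Finally, cells with at least 2 of the 5 mesothelial genes (*BNC1*, *UPK3B*, *UPK1B*, *MSLN* and *LRRN4*) were set against the rest, 137 and 89 cells against 2018 and 1709. Most of these were cells with *BNC1* and *LRRN4*: 97.8 and 91.0% had *BNC1* and 91.2 and 92.1% had *LRRN4*. In thinned cells these 2 genes met about as often as independent genes would. They met in 40 cells against 35.1 expected in 32.7 and in 16 against 18.9 in 33.10 (ratios 1.14 and 0.845). The mesothelial-detected cells were also deeper, with medians of 15452 and 15430 UMIs against 11964 and 12075. Of 21361 genes 16 were higher (0.0749%) and 17 lower (0.0796%), and none of the 5 remaining members was called. *WT1* was at 106 and 143 CPM in these cells against 66.7 and 86.3 CPM (0.60, SE 0.23, adjusted p = 0.422), *TBX18* at 52.0 and 59.0 against 19.4 and 34.1 CPM (0.96, SE 0.26, adjusted p = 0.186) and *KRT19* at 1371 and 672 against 480 and 306 CPM (1.29, SE 0.37, adjusted p = 0.209). All 3 were higher in both organoids. With the organoid as a block, *TBX18* (adjusted p = 0.0369) and *PDPN* (0.0320) passed, although *PDPN* was at 53.3 against 5.81 CPM in 32.7 and only 2.51 against 1.57 CPM in 33.10.

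Among called genes with at least 10 CPM in the higher part of each organoid, the 5 that differed most toward the mesothelial-detected cells were *KCNMA1*, a potassium channel gene (47.9 and 42.7 against 10.4 and 8.17 CPM, 2.19, SE 0.30, adjusted p = 0.0187), *MGAT4C* (2.03), *RIMS1* (1.78), *OTUD7A* (1.78) and *LRRN2*, of the family of *LRRN4* (1.76). Away from them were *CRHBP* (7.08 and 23.9 against 66.1 and 128 CPM, -2.85, SE 0.52, adjusted p = 0.0455), *COLEC10*, a collectin (-2.30), *GNA14* (-2.07), *TLR4*, a receptor of innate immunity (-1.91), and *CCDC68* (-1.84). Of 15 epithelial and mesothelial genes tested, *DPP4* was higher (4.05, SE 0.73, adjusted p = 0.0468) and 14 were not called, with a median of 1.41 against -0.07 over all genes. *DPP4* had a larger fold than *KCNMA1*, but did not meet the naming rule on level and direction in each organoid. None of the 15 epicardial or 12 mesenchymal genes was called. When 5% of the profile of all barcodes was removed, edgeR called 0 genes in place of 33 in the mesothelial division and 5 in place of 21 in the *TBX18* division. Keeping cells of several gates gave 2 and 3 genes, the organoid as a block gave 186 and 135, and DESeq2 gave 184 and 101.

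The 4 gene lists describe the COL3A1-positive class beside the members. Against cardiomyocytes, where 15.8% of all genes were higher and 16.7% lower, 10 of 12 mesenchymal genes were higher, with a median of 1.77, among them *PDGFRB* (3.87, SE 0.24), *SNAI2* (3.01, SE 0.18) and *POSTN* (2.96, SE 0.38), and *ZEB1* was lower (-0.67, SE 0.20). Of 15 epicardial genes 4 were higher (*HAND2*, *NR2F1*, *NR2F2* and *BMP4*) and 6 lower (*ALDH1A2*, *SCX*, *TBX20*, *TBX5*, *SFRP5* and *MEIS2*), with a median of -0.25. Of 15 epithelial genes 5 were higher (*KRT18*, *CDH1*, *DPP4*, *RSPO1* and *C3*), 1 was lower (*EZR*) and 9 were not called, and the highest fold was of *RSPO1* (3.02, SE 0.27, adjusted p = 1.84e-06; 33.0 to 43.5 against 4.39 to 4.52 CPM). Of 6 genes of liver stellate cells, 3 were higher (*HGF*, 3.51, *NGFR*, 1.94, and *RELN*, 1.46), *LRAT* was lower (-3.43, SE 0.36, adjusted p = 8.94e-06) and 2 were not called, with a median of 1.18. The median over all genes was -0.02.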

How the data were processed

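The 2 libraries, 1 per BG-HFO (10x Chromium, 3' v3.1 chemistry), were analysed. The deposited values are raw UMI counts per gene and barcode, made by the authors with Cell Ranger on GRCh38 with intronic reads included. They precede the study's depth equalization, removal of free RNA with SoupX and cell filter. No correction for free RNA was applied here. Cells with 50 to 11000 genes and under 30% mitochondrial UMIs entered. Totals were 191152562 UMIs in 32.7 (16866 barcodes) and 233818881 in 33.10 (19948 barcodes), each barcode with at least 500 UMIs.

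Gates were summed UMIs: *COL3A1* at least 10; *MYH6*, *TNNT2* and *ACTC1* at least 10; and at least 3 of *CDH5*, *TIE1*, *ECSCR* (endothelium), *ALAS2*, *HEMGN* and a gene not reported here (erythroid), *ITGA2B*, *GP9*, *TMEM40* (megakaryocyte), *PTPRC*, *TYROBP*, *LAPTM5* (leukocyte) or *APOA2*, *TTR*, *HNF4A*, *EPCAM* (endoderm). No doublet caller was run, and cells of several gates were set aside. Counts were summed per class and organoid and tested with edgeR 4.0.16 (TMM, filterByExpr, quasi-likelihood test, Benjamini-Hochberg over all genes) in R 4.3.3. The script was tested on simulated data. Both classes of a comparison come from the same organoid, so the organoid pairs them. For the 7 lineage classes, their deviations correlated between -0.0094 and 0.574 (median 0.298, 21 pairs of classes). No such value is given for the divisions of COL3A1-positive cells. The fit without a block is the main one. Members and lists were chosen with earlier results of these data known. In the 3 divisions by members, genes were named by a rule: the 5 with the largest fold change in each direction, with adjusted p under 0.05, at least 10 CPM in the higher part of each organoid and the same direction in both, without clone and LINC names. Alternatives were other gates, thinning, removal of 5% of the ambient profile, no cell filter, RLE factors, no low-count filter, DESeq2 1.42.0, the block and each organoid alone.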

Additional observations from a re-analysis of the deposited data

How the results depend on the processing

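No called result changed direction under any setting that was run. Members that were not called could differ in sign between the organoids taken alone, as *KRT19* against cardiomyocytes (0.20 in 32.7 and -0.42 in 33.10), *MSLN* against endoderm (4.74 and -4.06), *UPK1B* by *LUM* (-3.34 and 1.26) and *PDPN* by *WT1* (-1.62 and 0.20). Of the tests of single members, 983 stayed on their side of the threshold, 21 lost a call and 17 gained one. With a *COL3A1* gate of 20 UMIs, 3 in place of 6 members were called against cardiomyocytes, and thinning to 5000 UMIs left 4 in place of 7 members and 1517 in place of 3912 genes against endoderm. In the cycling comparison 3 members were called with no filter on low counts and 2 with the organoid as a replicate block, in place of 1.

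For the *WT1* division, where edgeR called 0 genes, 1 gene was called with the *COL3A1* gate of 20, with thinning and with no cell filter, 2 with the cardiomyocyte gate without *TNNT2*, 5 with no filter on low counts, 12 with the block and 18 with DESeq2. The *TBX18* division gave 21 genes and then 12 with the gate of 20, 3 with cells of several gates kept, 89 (and 1 member, *TCF21*) with thinning, 5 with 5% of the ambient profile removed, 64 without *TNNT2*, 149 with no filter, 135 with the block and 101 with DESeq2. The mesothelial division gave 33 genes and then 21 with the other gates doubled, 2 with cells of several gates kept, 0 with the ambient profile removed, 293 (and 1 member) with no filter, 186 (and 2 members) with the block and 184 with DESeq2. The block gave 1117 in place of 683 genes for *LUM*. It changed no call of a member other than those named in the report.

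Of the co-detection ratios under other settings 19 were counted as moved and 66 as not moved. The 66 include the ratio of each organoid alone for every pair, which was counted so without a comparison. They therefore overstate how stable the ratios were. Shares of cells with a UMI were only compared with shares after thinning to 5000 and 3000 UMIs. Of these 38 moved and 2 did not. Thinning removes UMIs and so lowers the chance that a cell holds one, and this count does not measure stability. The cause of the moves in the co-detection ratios was not tested. With thinning, the *LUM*, cycling and mesothelial comparisons were not run, since a part fell under 20 cells. Each organoid alone gives a value with no test. Of 150 such values, 24 lay further from the joint estimate than the standard deviation of the values of the 2 organoids. That standard deviation grows with the difference between the organoids, so the count does not measure how alike they were. A single line, 2 organoids and low counts per cell limit what can be seen of *UPK3B*, *UPK1B* and *MSLN*, and p-values measure only the spread between these organoids.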
